A study of Mus musculus with 40 samples.

Results

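The genes of 8 adrenergic receptors were read in the histone mark peak lists of mouse brown adipose tissue: Adrb1, Adrb3, Adra1a, Adra1b, Adra1d, Adra2a, Adra2b and Adra2c, out of 21938 protein-coding genes. The members were named by gene, with earlier results of these data known. Every peak over each gene body and 20 kb on each side was collected. This gave 544 of the 457842 peaks in all lists. The tissue, labelled iBAT, came from wild type C57BL/6N mice aged 20 weeks. Chromatin immunoprecipitation with sequencing (ChIP-seq) was run for H3K4me3, H3K27ac, H3K4me1 and H3K27me3 in 8 mice, which with 8 inputs made 40 samples. Mice 1 and 2 were warm on normal chow (NCD), and mice 4 and 5 were cold on NCD. Mice 7 and 8 were warm on high-fat diet (HFD), and mice 10 and 11 were cold on HFD. HFD began at 8 weeks of age and lasted 12 weeks, and cold meant 24 h at 4 °C. All mice shared the wild type genotype and each condition held 2 mice. One mouse number was given per library, while the study's methods speak of tissue from a pair of mice per experiment, so pooling could not be read from the labels.

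Adrenergic receptors are the G protein-coupled receptors for noradrenaline and adrenaline. In brown adipocytes, noradrenaline released by sympathetic nerves acts on the beta receptors, which couple to Gs, raise cyclic AMP and switch on lipolysis and heat production. The alpha-1 receptors couple to Gq and calcium, and the alpha-2 receptors couple to Gi, lower cyclic AMP and also serve as brakes on transmitter release. H3K4me3 marks promoters, H3K27ac active promoters and enhancers, H3K4me1 enhancers, and H3K27me3 chromatin held silent by Polycomb. The lists hold peaks, not RNA. In whole tissue, fewer cells carrying a mark and less of the mark per cell cannot be told apart.

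Which promoters carry H3K4me3 was set beside their sequence, because the members differ widely in CpG content. RefSeq promoter entries (GRCm38.p6) matched 5 of the 8 members in 6 entries, and Adrb3, Adra1a and Adra1d had none. The 250 bases before the RefSeq start are shown for Adrb1, with H3K4me3 and H3K27ac, and for Adra2b, with H3K4me3 and, in mouse 5, H3K27me3. Both starts of Adra1b are also shown, of which only the internal one carried H3K4me3. Capitals mark CpG dinucleotides. The 4 stretches are, in order, Adrb1 at chr19:56721867-56722116 (plus strand), Adra2b at chr2:127362929-127363178 (plus strand), the internal start of Adra1b at chr11:43836490-43836739 (minus strand) and its outer start at chr11:43901238-43901487 (minus strand).
Adrb1: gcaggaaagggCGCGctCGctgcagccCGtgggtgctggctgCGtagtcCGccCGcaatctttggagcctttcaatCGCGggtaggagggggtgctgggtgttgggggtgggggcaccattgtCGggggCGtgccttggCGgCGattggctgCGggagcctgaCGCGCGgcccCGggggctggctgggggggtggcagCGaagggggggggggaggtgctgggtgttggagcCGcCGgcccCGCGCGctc
Adra2b: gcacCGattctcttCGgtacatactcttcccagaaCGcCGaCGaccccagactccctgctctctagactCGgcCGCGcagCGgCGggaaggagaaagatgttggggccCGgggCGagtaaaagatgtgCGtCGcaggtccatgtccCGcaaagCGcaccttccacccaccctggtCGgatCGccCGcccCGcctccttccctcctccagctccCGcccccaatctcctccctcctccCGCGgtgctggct
Adra1b internal start: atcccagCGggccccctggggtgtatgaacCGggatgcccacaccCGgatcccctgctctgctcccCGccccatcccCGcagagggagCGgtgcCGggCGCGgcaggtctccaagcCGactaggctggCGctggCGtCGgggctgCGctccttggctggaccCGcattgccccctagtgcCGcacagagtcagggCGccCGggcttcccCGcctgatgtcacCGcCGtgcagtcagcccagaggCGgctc
Adra1b outer start: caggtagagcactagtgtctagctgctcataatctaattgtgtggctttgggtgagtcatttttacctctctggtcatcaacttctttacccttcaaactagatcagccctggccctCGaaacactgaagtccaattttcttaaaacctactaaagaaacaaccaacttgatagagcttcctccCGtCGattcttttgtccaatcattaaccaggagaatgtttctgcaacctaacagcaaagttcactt

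These stretches held 24 CpG in Adrb1, 23 in Adra2b, 22 before the internal start of Adra1b and 3 before its outer start, against a median of 6 over 32851 promoters. Adrb1, the beta receptor that also sets heart rate, had H3K4me3 and H3K27ac around this stretch. Adra2b had H3K4me3 over it and, in mouse 5, H3K27me3 as well, without H3K27ac. Similar CpG density thus went with different marks. Over the annotated start and 500 bp on each side, CpG observed over expected was 0.845 in Adrb1 and 0.816 in Adra1d, higher than in 84.7% and 80.7% of 21938 genes. Adrb3, the main beta receptor of rodent fat cells, had a ratio of 0.329 at its outer start, higher than in 34.1% of genes, and yet carried both active marks in every mouse. Adra1a stood at 0.596, near the median of 0.571. The values were 0.745 in Adra2b, 0.724 at the internal start of Adra2a and 0.263 in Adra2c. At Adra1b the internal start had 0.671 and the outer start 0.305.

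Short motifs were searched on both strands of the 300 bases of each entry as a description. The full cyclic AMP response element TGACGTCA was in 0 of the 6 entries and in 1.79% of all promoters. Its shorter form TGACG, which the full element contains, occurred 1 time each in Adrb1 and Adra2a and in 20.8% of promoters. GGGCGG, the core of an Sp1 site, occurred 2 times each in Adra2b and at the internal start of Adra1b and 1 time each in Adrb1 and Adra2a, against 35.7% of promoters with at least 1. CCAAT occurred 3 times at the outer start of Adra1b and 1 time each in Adrb1, Adra2b and Adra2c (37.4% of promoters). TATAAA was found in Adra2a (13.6%) and AGGTCA in Adra2c (16.3%).

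Lists differed in length between libraries, and this touches every count that follows. H3K4me3 lists held 13517 to 24104 peaks, H3K27ac 3224 to 40604, H3K4me1 12 to 27568 and H3K27me3 20 to 6428. Mouse 7 had the shortest lists for H3K4me3, H3K27ac and H3K4me1, and mice 7 and 10 had 21 and 20 H3K27me3 peaks. Mouse 5 held 75.5% of all 8515 H3K27me3 peaks and mouse 11 held 16.3%. The adipocyte markers (Adipoq, Pparg, Cidea, Ucp1, Fabp4, Plin1) had an H3K4me3 promoter peak in all 8 mice for 6 of 6 genes. Of the neuron markers, 0 of 5 had one in at least 4 mice and 3 of 5 had H3K27me3 in at least 1 mouse. Among the other lists, at least 4 mice had H3K4me3 at 4 of 4 endothelial, 1 of 5 smooth muscle and pericyte, 0 of 4 macrophage and 1 of 4 skeletal muscle markers. H3K27ac followed in 6 of 6 adipocyte and 4 of 4 endothelial markers and in 0 of the neuron, smooth muscle, macrophage and skeletal muscle markers. Acta1, a skeletal muscle marker named after its values were seen, had H3K4me3 in 4 NCD and 0 HFD mice. The part of other cell types in the receptor marks was not tested. Ucp1 and Actb had H3K4me3 promoter peaks in 8 mice and H3K27ac in 8 and 7, and Alb and Neurod1 had neither, with H3K27me3 in 2 mice at Neurod1.

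The receptors fell into 3 patterns. Adrb1, Adrb3, Adra1a and Adra1d carried H3K4me3 and H3K27ac at the promoter, with further H3K27ac and H3K4me1 in their surroundings and no H3K27me3 peak. Adra2a, Adra2b and Adra2c carried H3K4me3 at the promoter, H3K27me3 in mouse 5, and neither H3K27ac nor H3K4me1 in any mouse. Adra1b carried a small H3K4me3 peak at its internal start and no peak of H3K27ac or H3K27me3. Most H3K27me3 lists were short, so a missing H3K27me3 peak does not show that the mark was absent. A promoter is taken here as 1000 bp either side of an annotated start, and a percentile as the rank of a peak by −log10 p among all peaks of its own list, from 0 to 100.

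**Figure D1:**
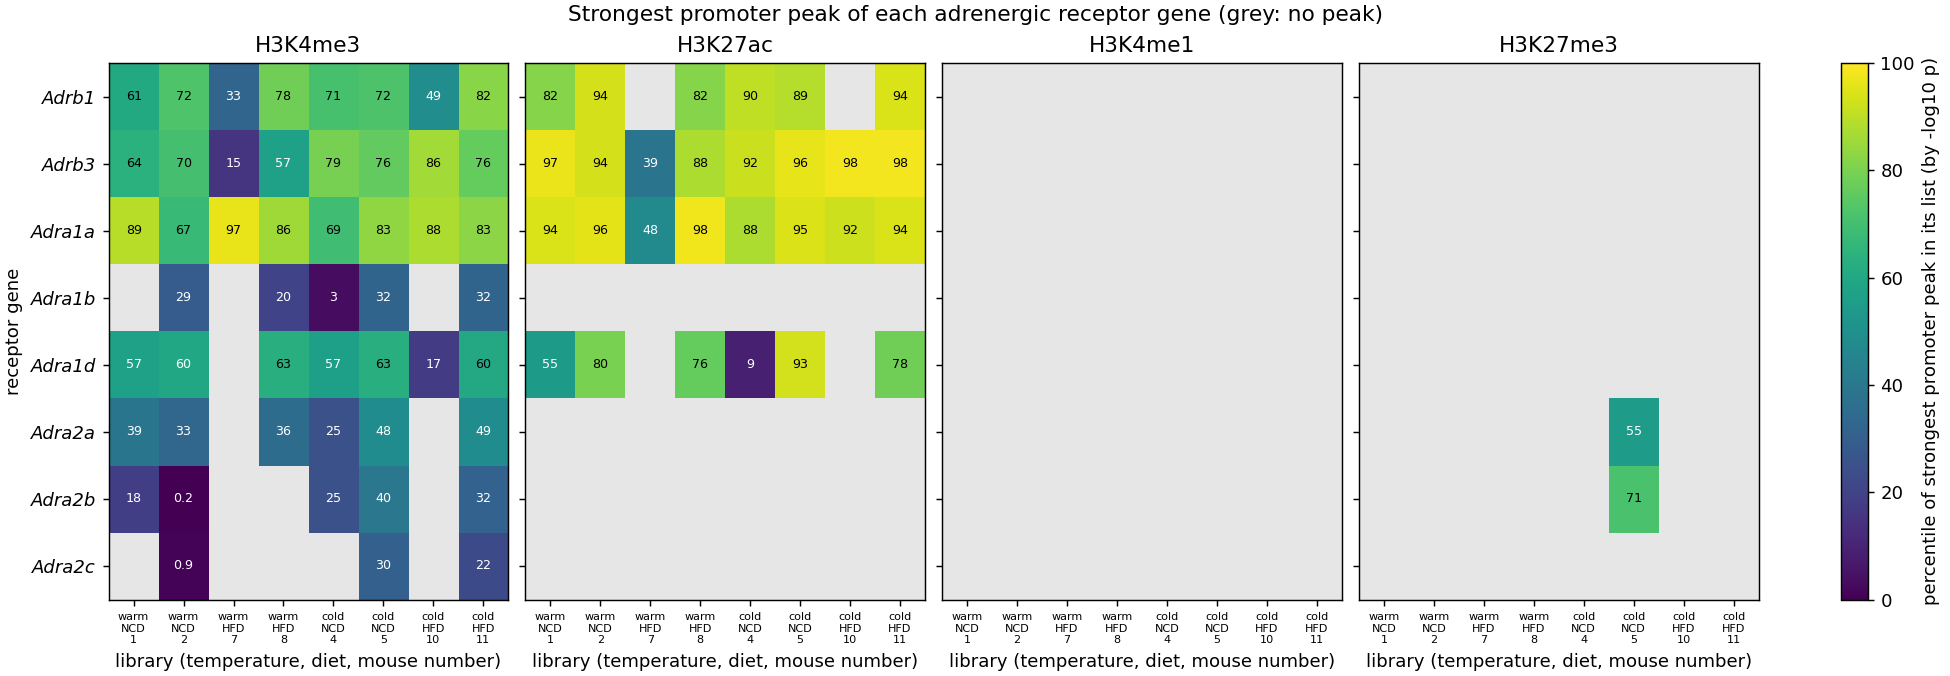
Percentile of the strongest promoter peak of each receptor gene (rows) within the peak list of each of 8 mice (columns, by temperature, diet and mouse number), 1 panel per mark. Percentiles run from 0 to 100 by −log10 p and grey cells have no peak; H3K27ac fills 4 rows, in 6 to 8 mice each, and H3K27me3 shows only for Adra2a and Adra2b in mouse 5.

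In counts, 7 of 8 members had an H3K4me3 promoter peak in at least 4 of the 8 mice, against 60.6% of all protein-coding genes. H3K27ac reached 4 of 8 members (39.9% of genes). H3K4me1 and H3K27me3 reached 0 of 8 members each, where the shares of all genes were 1.48% and 0.00456%. H3K27me3 in at least 1 mouse was found at the promoters of 2 of 8 members, against 6.89% of genes. Over the wider windows, 7 members had H3K4me3 in at least 4 mice (72.6% of genes), 4 had H3K27ac (59.2%), 4 had H3K4me1 (26.2%) and 0 had H3K27me3 (0.315%). H3K27me3 in at least 1 mouse lay in 3 of 8 windows against 17.2% of genes. With 8 members these shares are descriptions.

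H3K27ac and H3K27me3 did not meet in any member window. The 4 members with H3K27ac in at least 4 mice had 0 H3K27me3 peaks, where 15.3% of the 12997 genes with such H3K27ac had H3K27me3 in at least 1 mouse. Adra1b, Adra2a and Adra2b had H3K4me3 in at least 4 mice and H3K27ac in none, as did 7.69% of all genes. In 2 of these 3 members, Adra2a and Adra2b, H3K27me3 was present in at least 1 mouse, against 43.8% of the 1688 such genes. With so few members, both counts lie close to what the shares of all genes would give, and they are descriptions.

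Adrb3, the receptor through which noradrenaline mainly drives brown fat of rodents, lies on chromosome 8 from 27225776 to 27250616 (minus strand, GRCm38). It had an H3K4me3 and an H3K27ac promoter peak in 8 of 8 mice. The strongest H3K27ac promoter peak ranked between the 38.6 and 98.4 percentile of its list, with a median of 94.9, and enrichment over input was 5.24- to 21.4-fold. Mouse 7 was the low one, and the other 7 mice stood at 87.6 or above. The H3K27ac peaks of all mice merged into a region of 11590 bp, from 27224798 to 27236387. It overlapped coding, intronic and untranslated parts of the gene, but ended short of the upstream end of the annotated span at 27250616. The region also covered the start of Gm45470, an antisense transcript, and reads of the 2 cannot be told apart. The H3K4me3 region of the promoter, from 27225151 to 27230911, ended within 1000 bp of the same start. With only summits in the promoter counted, mean H3K4me3 cover above H3K27me3 fell from 2140 to 760 bp. Not every mouse thus had an H3K4me3 summit there. The strongest H3K27ac promoter peak itself measured from 280 bp in mouse 7 to 11547 bp in mouse 4.

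A separate H3K27ac region of Adrb3 lay 8.37 kb upstream of the start, from 27237954 to 27241449, and was found in 8 of 8 mice with a median percentile of 78.9. It falls inside the annotated gene span, which runs further upstream than the starts of the basic transcripts used here. H3K4me1 was scattered over the same part of the locus in mice 2, 4, 5 and 8, and no single H3K4me1 region of Adrb3 was shared by 4 mice. The window also held the promoter of Eif4ebp1, a translation repressor gene, with H3K4me3 in 8 and H3K27ac in 7 mice. Over the whole window, H3K27ac covered a median of 15.1 kb (1.88 kb in mouse 7 to 18.8 kb in mouse 11). Its mean share of the window, 21.2%, was higher than in 99.4% of genes.

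Adrb1 lies on chromosome 19 from 56722199 to 56733113 (plus strand). Its promoter had H3K4me3 in 8 of 8 mice and H3K27ac in 6, with mice 7 and 10 lacking it. H3K27ac flanked the start rather than covering it. One region ended 0.295 kb upstream and was found in 6 mice (median percentile 89.6). The other began 0.102 kb downstream, ran for 7490 bp over the gene and was found in 7 mice (median percentile 82.0).

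The strongest H3K27ac near Adrb1 was not at its promoter. A region of 7182 bp, from 56739104 to 56746285, began 16.9 kb downstream of the start and was present in 8 of 8 mice at percentiles of 94.8 to 99.6 (median 98.7). It reached the start of AC158549.1, a long intergenic noncoding RNA, where H3K4me3 was also present in 8 of 8 mice. Peaks there cannot be assigned to either gene from position alone. H3K27ac was also found 17.6 kb upstream in 6 mice and 12.9 kb downstream in 7 mice. In all, H3K27ac covered a median of 39.1% of the 50.9 kb window (5.95% in the lowest and 44.7% in the highest mouse). The mean of 31.3% was above that of 99.9% of genes. H3K4me1 peaks lay within the same distal parts, in 5 mice (2, 4, 5, 8 and 11) and 29 peaks in all.

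**Figure D2:**
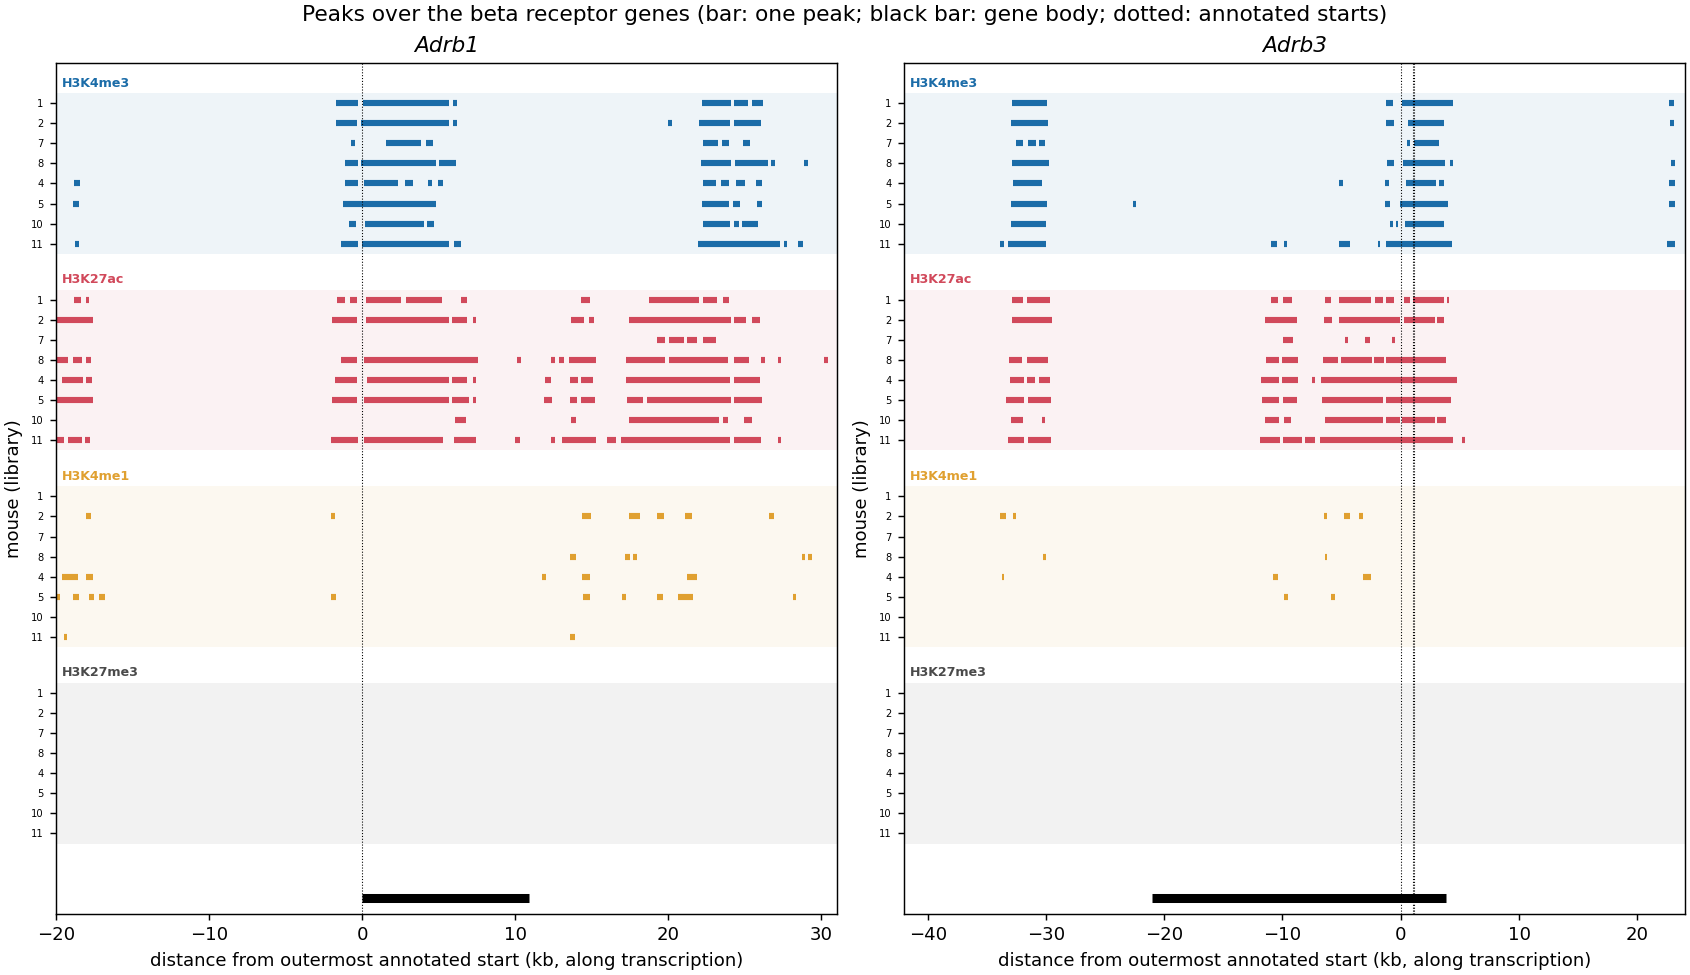
Every peak over Adrb1 and Adrb3 in each library, as a bar at its distance in kb from the outermost start, with rows by mark and mouse (warm mice 1, 2, 7, 8, then cold mice 4, 5, 10, 11). H3K27ac spreads over both genes and the region 16.9 kb downstream of Adrb1 is filled in all 8 mice, while the H3K27me3 rows are empty; the H3K27ac rows of mouse 7 are the sparsest.

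The alpha-1 receptors, which couple to Gq, split. Adra1a (chromosome 14, 66635251 to 66771168, plus strand) had both active promoter marks in 8 of 8 mice. Its H3K4me3 percentile was 89.2 and 67.4 in the warm NCD mice, 69.4 and 83.3 in the cold NCD mice, 96.6 and 85.7 in the warm HFD mice and 87.8 and 82.7 in the cold HFD mice. Warm and cold mice overlapped, as did NCD and HFD mice, and the median of 84.5 was the highest of the 8 members. H3K27ac at this promoter had a median percentile of 94.4 and ran from 47.7 in mouse 7 to 98.0 in mouse 8.

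Adra1a also had the most H3K27ac regions, 24 in its window of 176.0 kb. Of these, 8 lay over 1000 bp from a start and were found in at least 4 mice. An intronic region from 66654369 to 66661762, 18.8 kb into the gene, was marked in 8 of 8 mice (median percentile 91.8). A further intronic region 112.0 kb into the gene, from 66747604 to 66750633, was also marked in 8 of 8 mice, with a median percentile of 78.6. At 81.5 kb, a region of 6505 bp was marked in 7 mice. H3K4me1 peaks fell in 19 regions in mice 2, 4, 5 and 8. Downstream of the gene, the start of the noncoding RNA Gm10032 had H3K4me3 in 8 mice and H3K27ac in 7.

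Adra1d (chromosome 2, 131545850 to 131562283, minus strand) had H3K4me3 at the promoter in 7 mice and H3K27ac in 6. Neither mark was called in mouse 7, and mouse 10 had H3K4me3 alone. Its H3K27ac percentile was 54.6 and 79.7 in the warm NCD mice, 8.86 and 93.2 in the cold NCD mice, 76.2 in mouse 8 and 78.2 in mouse 11. The cold NCD mice thus held both the lowest and the highest value. When H3K27ac lists were shortened to their 3224 strongest peaks each, the promoter kept H3K27ac in 1 of 8 mice. The antisense transcript Gm14285 starts in the same region. Inside the gene, H3K27ac lay 7.77 kb from the start in 6 mice and 3.74 kb from it in 5. H3K4me1 was found at both places, 8.66 kb and 4.27 kb from the start, in 4 mice each, and the first of these ranked between the 96.2 and 98.7 percentile of its lists. These were the 2 distal H3K4me1 regions among all members that reached 4 mice.

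Adra1b (chromosome 11, 43774606 to 43901210, minus strand) differed from its relatives. Its outer start had 0 peaks of any mark within 1000 bp in 8 mice. Its internal start, 64.9 kb further along, had an H3K4me3 peak in mice 2, 4, 5, 8 and 11. This peak was 278 to 601 bp wide, with percentiles of 3.21 to 32.4 and enrichment of 2.47- to 11.7-fold. When H3K4me3 lists were shortened to 13517 peaks each, it remained in 0 mice. Another H3K4me3 peak, 240 to 384 bp wide, lay downstream of the gene in 5 mice. H3K27ac and H3K27me3 were absent from the lists over its window, and H3K4me1 was found in mice 2, 4 and 5. Adra1b is thus the member whose marked start is the CpG-rich one printed above.

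**Figure D3:**
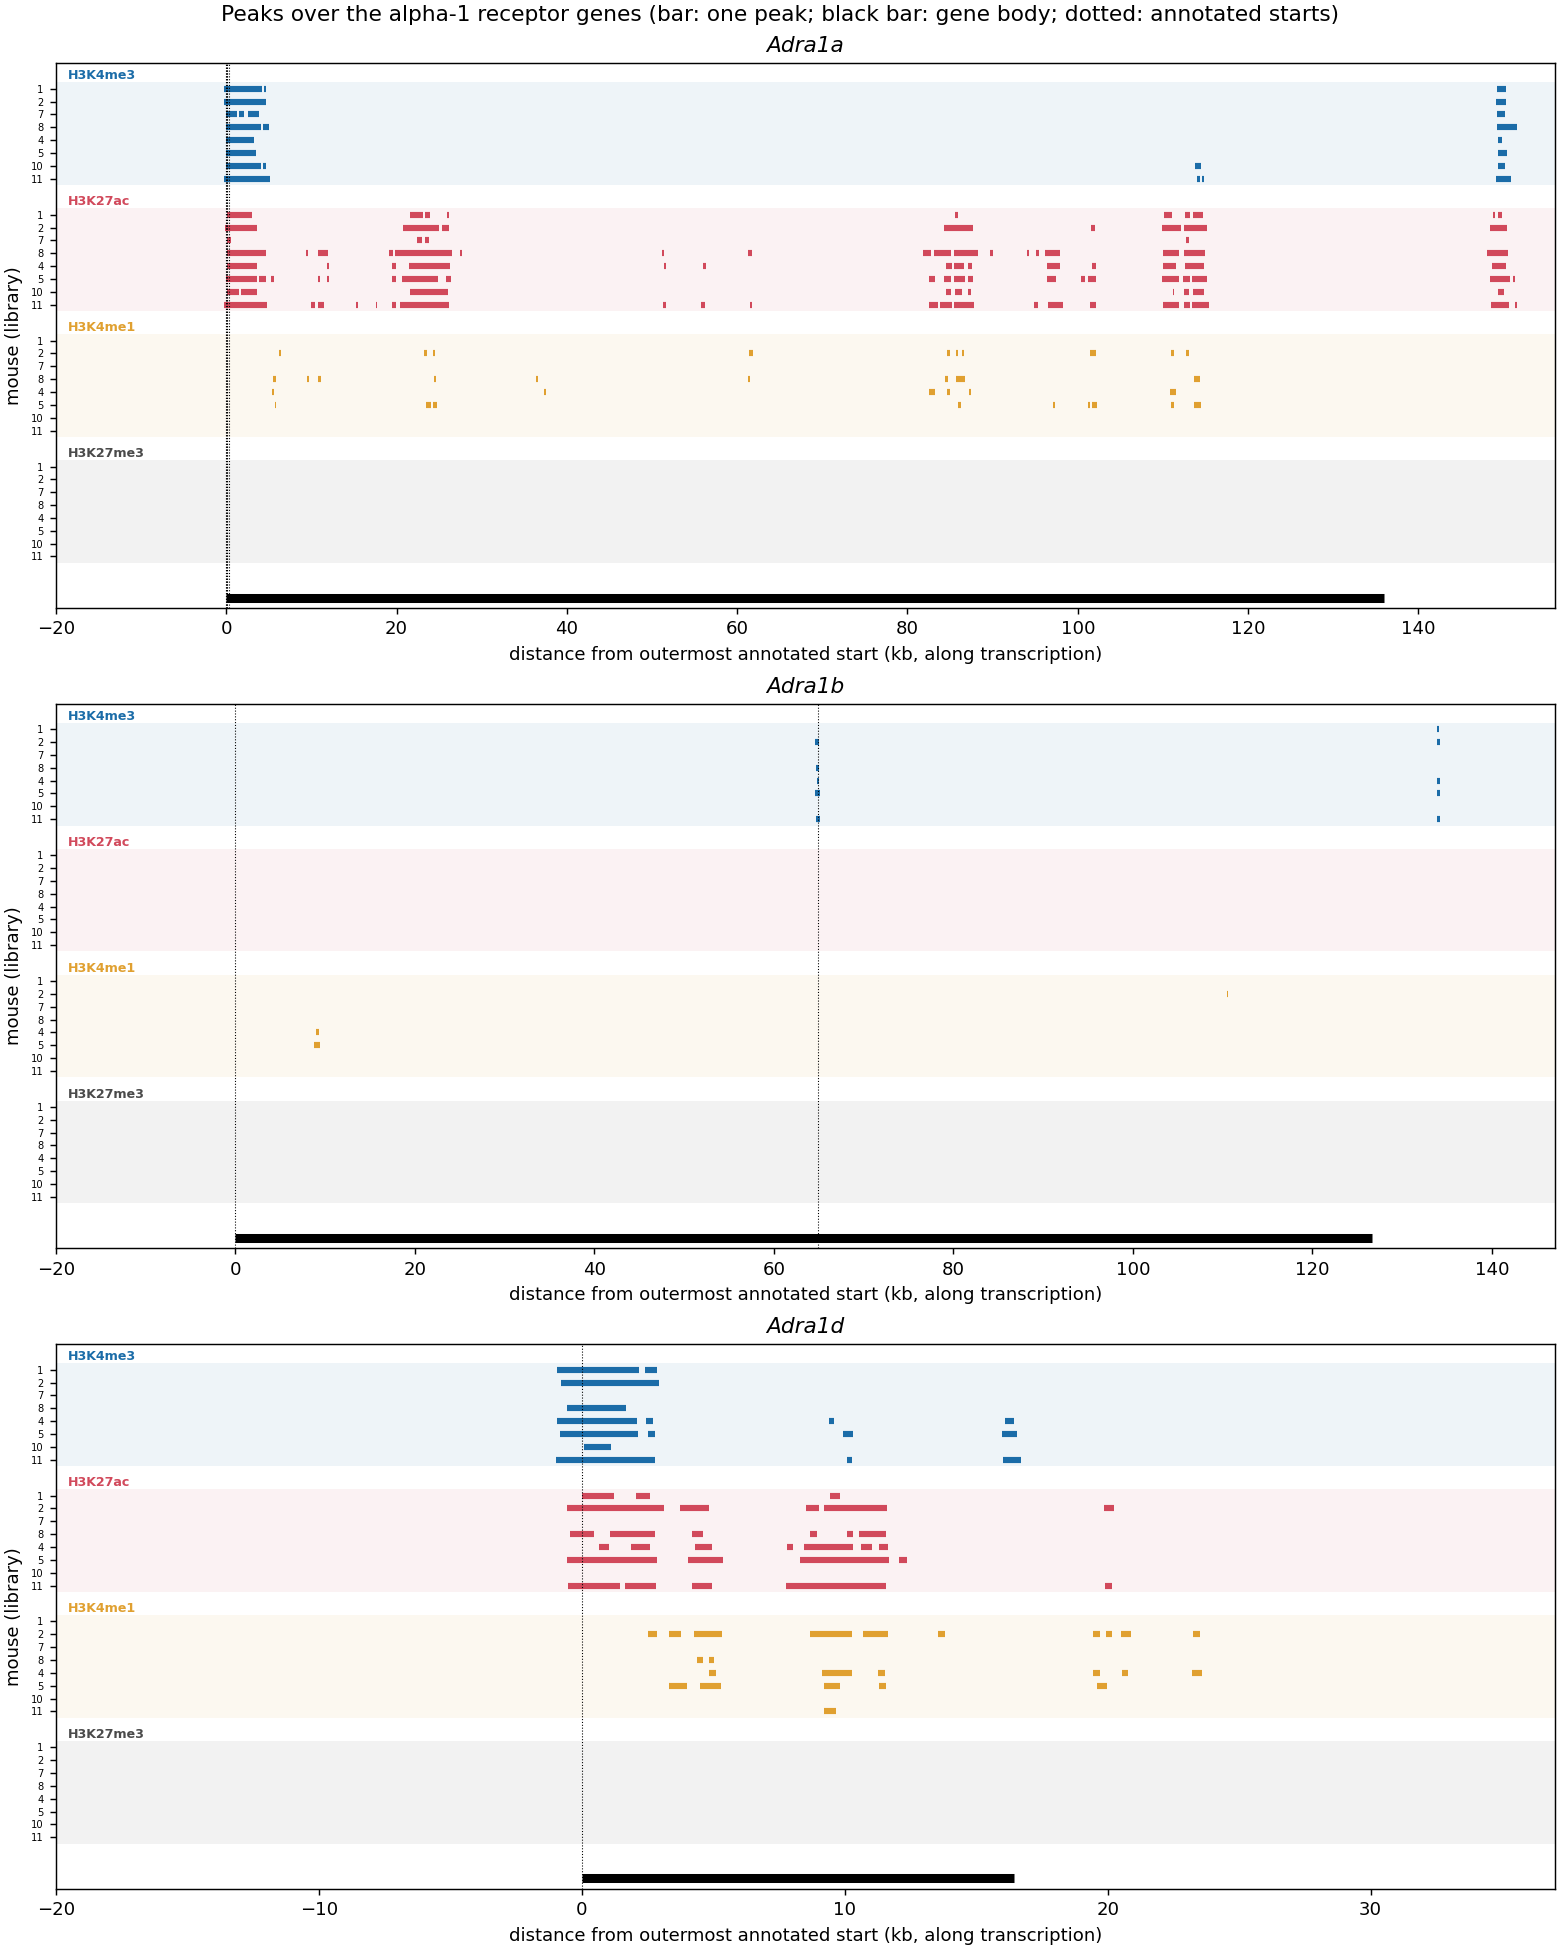
Every peak over Adra1a, Adra1b and Adra1d in each library, as a bar at its distance in kb from the outermost start, with rows by mark and mouse (warm mice 1, 2, 7, 8, then cold mice 4, 5, 10, 11). H3K27ac recurs in introns of Adra1a and Adra1d, whereas Adra1b shows short H3K4me3 peaks at its internal start at 64.9 kb and no H3K27ac.

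The alpha-2 receptors, which couple to Gi, shared H3K4me3 without H3K27ac. Adra2a (chromosome 19, 54044151 to 54048982, plus strand), the subtype that restrains lipolysis and transmitter release, had H3K4me3 in 6 mice at percentiles of 24.7 to 48.6. Adra2b (chromosome 2, 127363208 to 127367221, plus strand) had it in 5 mice at 0.209 to 39.6. Adra2c (chromosome 5, 35278319 to 35281763, plus strand) had it in mice 2, 5 and 11 at 0.913 to 30.5. When H3K4me3 lists were shortened to 13517 peaks each, the peaks of Adra2b and Adra2c were lost in every mouse, as at Adra1b. Adra2a kept its peak in some mice only. All 3 genes are short, between 3.44 and 4.83 kb, and their H3K4me3 peaks lay at or just past the start, over untranslated and coding sequence. Mice 7 and 10 had no H3K4me3 peak at any alpha-2 gene.

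H3K27me3 over these genes came from mouse 5 (cold NCD), with 1 further peak in mouse 11 (cold HFD). In mouse 5, Adra2a had 4 H3K27me3 peaks covering 2253 bp between 54043599 and 54048625, with enrichment of 4.62- to 6.61-fold. Of these, 2 overlapped the H3K4me3 peak of the same mouse, by 568 bp. Adra2b had 2 peaks covering 1526 bp in mouse 5, and 1 of them overlapped H3K4me3 by 421 bp. Adra2c had 3 peaks covering 885 bp in mouse 5, none overlapping H3K4me3, with the nearest 84 bp away. In mouse 11, a peak of 209 bp lay 2.11 kb upstream of Adra2b at the 2.37 percentile of its list.

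The −log10 q of the H3K27me3 peaks was 1.33 to 5.30, where the lowest in any list was 1.3. Mice 5 and 11 are also the mice with the most H3K27me3 peaks, and the part of list length in this result was not tested. In the other 6 mice, with 20 to 309 peaks in the whole genome, H3K27me3 at these genes was not detectable, which does not show that it was absent. Windows with H3K27me3 in mouse 5 were thus Adra2a, Adra2b and Adra2c, and the same list held 0 peaks over the 5 beta and alpha-1 genes.

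**Figure D4:**
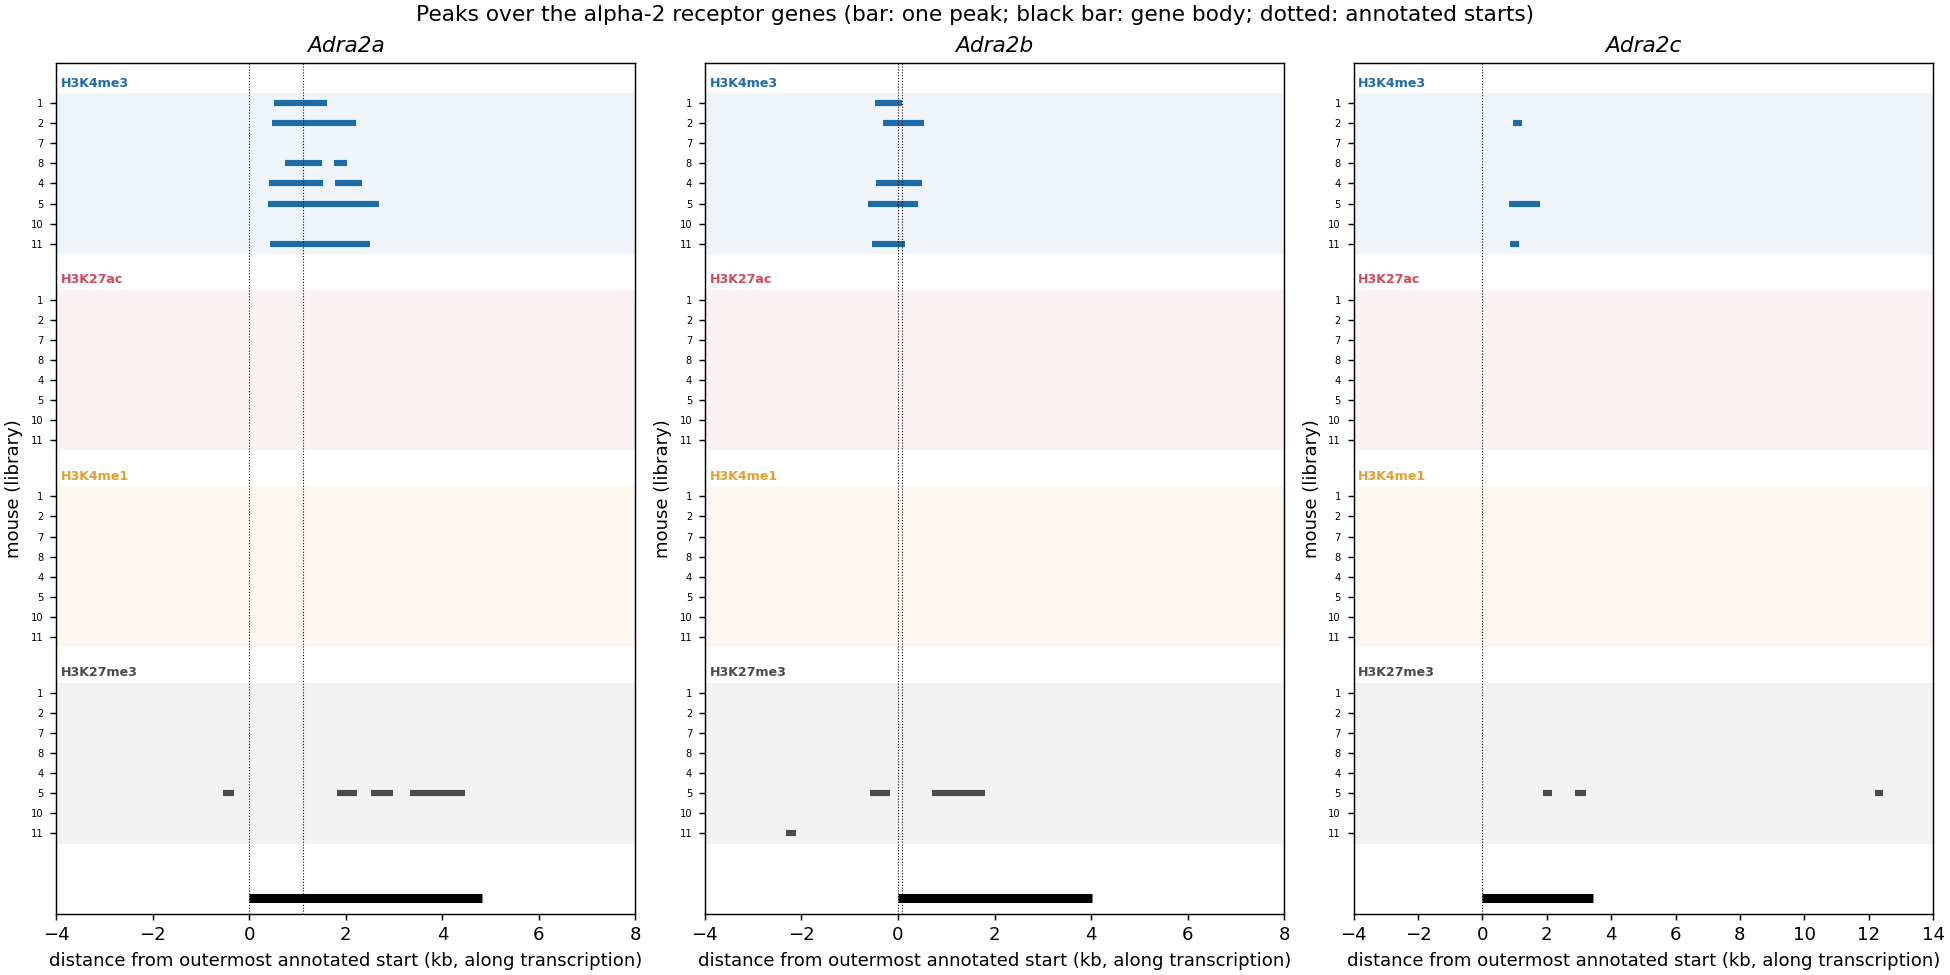
Every peak over Adra2a, Adra2b and Adra2c in each library, as a bar at its distance in kb from the outermost start, with rows by mark and mouse (warm mice 1, 2, 7, 8, then cold mice 4, 5, 10, 11). H3K4me3 sits at or just past the starts in 6, 5 and 3 mice, H3K27me3 flanks or overlaps it in mouse 5, and the H3K27ac and H3K4me1 rows are empty.

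The marks were compared directly as promoter bases covered, in 8 libraries against 8 (two-sided exact permutation test, adjusted by Benjamini-Hochberg over all genes). H3K4me3 covered more than H3K27me3 in 6 of 8 members, against 88.7% of 14568 genes, and 0 members and 0% of genes went the other way. In Adrb3 the means were 2140 ± 538 bp and 0 ± 0 bp (SD, n = 8, higher in 8 of 8 mice, exact permutation adjusted p = 0.000239). H3K27me3 covered 0 bp of the promoter in every mouse for every member but Adra2a and Adra2b. In those members the p-value follows only from how many mice had a peak of the active mark. The H3K27me3 lists of all mice but 5 and 11 held 20 to 309 peaks, so the test cannot separate mark from list length. Adra2b, at 510 ± 448 bp against 100 ± 284 bp (SD, n = 8), did not pass (exact permutation adjusted p = 0.0709), nor did Adra2c (adjusted p = 0.218). H3K27ac covered more than H3K27me3 in 4 of the 6 members with either mark, against 62.8% of 12229 genes, and 0 members and 0% of genes went the other way. In neither comparison could the other way be called for a member. H3K27me3 promoter peaks in at least 4 mice were found in 1 of 21938 genes, and no member had them in over 1 mouse. For Adrb3, Adra1a, Adrb1 and Adra1d the adjusted exact permutation p was 0.00232, 0.00232, 0.0142 and 0.0142.

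Since each mouse gave both marks, signs were also flipped within mice. In this pairing 5 members kept H3K4me3 above H3K27me3, with Adra1b lost (exact permutation adjusted p = 0.07), and 0 passed for H3K27ac above H3K27me3 (adjusted p = 0.0509 for Adrb3 and Adra1a and 0.0632 for Adrb1 and Adra1d). The second count says nothing about stability. The smallest p that 256 sign flips can give, 0.00781, adjusted to 0.0509 over 12229 genes, so that no gene could pass, while the differences were the same as before (2550 bp in Adrb3 and 1230 bp in Adra1a, each higher in 8 of 8 mice). Adra1b also failed to pass without mouse 2, 4, 5, 8 or 11 (5 of 8 members), or when weaker peaks (−log10 q under 5) were dropped. Adra2b passed when mice 7 and 10 were both left out (exact permutation adjusted p = 0.0464), with promoters of 500 bp (0.0288) and with only summits counted (0.0294). When the lists of a mouse were shortened to equal length, which left as few as 20 peaks, 0 members passed for either mark. Differences between marks were thus not separated from differences in list length.

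Temperature and diet were then compared. Cold drives the sympathetic signal that these receptors receive, so presence was set against temperature over both diets and against diet over both temperatures (4 against 4 mice each). No member had a promoter or window peak in all 4 mice of 1 group and in 0 of the other, for any mark. Few genes of the whole genome did so either. For H3K4me3 promoter peaks the share with that pattern was 0.0422% by temperature and 0.183% by diet, and for window peaks 0.0296% and 0.119%. H3K27ac gave 0.119% by temperature and 0.101% by diet at promoters, with 0.1% and 0.1% in windows. H3K4me1 gave 0% and 0.061% at promoters, with 0% and 0.0779% in windows. H3K27me3 gave 0% and 0% at promoters, with 0% and 0.0265% in windows. The lowest unadjusted Fisher's exact p among the members was 0.143, and each adjusted p was 1. With 4 against 4 mice no gene could pass this test after adjustment, so it cannot show an absence of change.

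The nearest to a pattern by diet was Adra2b, with H3K4me3 in 4 of 4 NCD and 1 of 4 HFD mice (Fisher's exact p = 0.143, adjusted p = 1). Mice 7 and 10, with short lists, are both HFD mice, and mouse 8 was the third without a peak. Without these 2 mice it was 4 of 4 NCD against 1 of 2 HFD mice. H3K4me1 over Adra1b, in 3 of 4 NCD and 0 of 4 HFD mice, gave the same p of 0.143. By temperature, Adrb1, Adrb3 and Adra1a had equal numbers of warm and cold mice for H3K4me3 and H3K27ac.

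Strength was compared as the percentile of the strongest promoter peak in its own list, with 0 where there was none, since heights were not scaled between lists. Adrb3 H3K4me3 stood at 63.8 and 70.4 in the warm NCD mice and 15.2 and 57.2 in the warm HFD mice. In cold it was 79.4 and 75.8 on NCD and 86.3 and 76.4 on HFD. The groups did not overlap, with cold at 79.5 ± 4.83 and warm at 51.7 ± 24.9 (SD, n = 4 each). The difference of 27.8 percentile points gave p = 0.0286 in the exact permutation test, which 70 assignments cannot go below, and an adjusted p of 0.534 (0.367 to 1 over the alternatives). At an unadjusted threshold of 0.05, 762 of 14232 genes (5.35%) passed, Adrb3 alone among the members. With lists of equal length it was 27.9 points (exact permutation p = 0.0286). Without mouse 7 the difference was 15.7 points (exact permutation p = 0.0286), and without both mouse 7 and mouse 10 it was 13.4 points (exact permutation p = 0.1, the smallest possible there). Leaving out mouse 4, 5, 10 or 11 in turn gave an exact permutation p of 0.0571 to 0.0857. With only summits in the promoter counted, it was 3.12 points (exact permutation p = 0.886). The H3K27ac percentile of Adrb3 was 96.2 ± 3.05 in cold and 79.2 ± 27.4 in warm mice (SD, n = 4 each, exact permutation adjusted p = 1).

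No member passed in any of the percentile tests after adjustment, and neither did any gene. No gene could, because too few genes reached the smallest possible exact permutation p of 0.0286. For H3K4me3 by temperature that p adjusted to 0.534, so shares of 0% do not show an absence of change. By temperature 0% of genes were called for H3K4me3 and 0% for H3K27ac, by diet 0% and 0%, and for the interaction of temperature and diet 0% and 0%. Unadjusted, the diet test passed 605 genes for H3K4me3 and 191 for H3K27ac, with 0 members among them, and the temperature test passed 1.35% of genes for H3K27ac, also with 0 members. The interaction test passed 229 genes for H3K4me3 and 22 for H3K27ac, again with 0 members. The largest diet difference among the members was Adrb1 H3K27ac, 44.0 ± 51.1 in HFD against 88.7 ± 4.92 in NCD mice (SD, n = 4 each, exact permutation adjusted p = 0.927). It came from mice 7 and 10, which had no peak, while mice 8 and 11 stood at 82.0 and 94.2 in the range of the NCD mice. In the interaction, the difference for Adrb3 H3K27ac between the cold effect on NCD and on HFD was −36.7 points (exact permutation p = 0.0571, adjusted p = 1). Mouse 7 was the low one here too, at 38.6 against 87.6 in the other warm HFD mouse and 98.3 and 98.4 in the cold HFD mice. The smallest p that the interaction test can give is 0.0286.

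**Figure D5:**
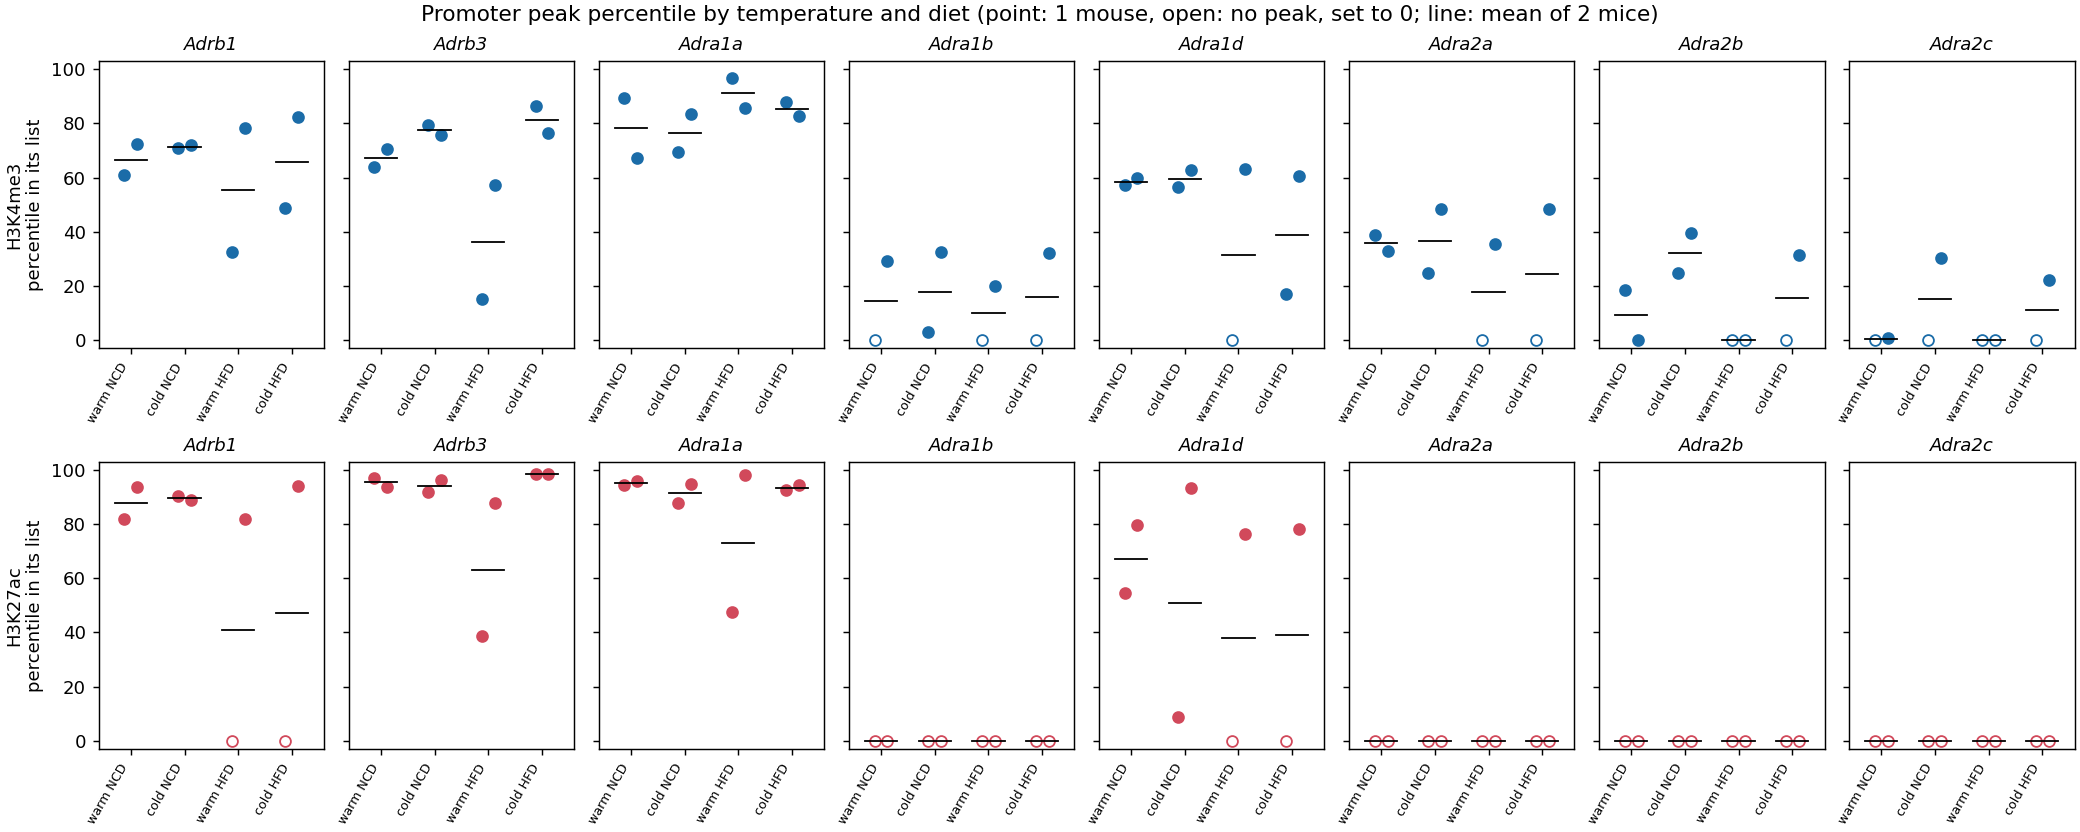
Percentile of the strongest promoter peak (0 to 100, y axis) for H3K4me3 (top) and H3K27ac (bottom) in each receptor gene by temperature and diet. Points are single mice, open where no peak was called and set to 0, and lines are means of 2 mice; Adrb3 H3K4me3 lies between 75.8 and 86.3 in the 4 cold mice and between 15.2 and 70.4 in the 4 warm mice.

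Genes that carry the receptor signal, or make and clear its ligand, were read in the same way (24 genes). An H3K4me3 promoter peak in at least 4 mice was found in 21 of 24 (60.6% of all protein-coding genes) and H3K27ac in 17 (39.9%). H3K4me1 and H3K27me3 were found in 0 each, close to the shares of all genes (1.48% and 0.00456%). Among the strongest H3K4me3 peaks, by median −log10 q, were those of Gnai3 (139, an inhibitory G protein alpha subunit) and Rgs2 (138, a regulator of G protein signalling), each in 8 mice. For H3K27ac, those present in 8 mice included Gnb2 (50.1, a G protein beta subunit) and Grk3 (14.3, a receptor kinase). By the same measure, the H3K27ac promoter peaks of the members stood at 24.5 in Adrb3 and 28.0 in Adra1a. The 3 genes without H3K4me3, named after their values were seen, were Th and Dbh, enzymes of noradrenaline synthesis, and Slc6a2, the neuronal noradrenaline transporter, and Slc6a2 had H3K27me3 in 1 mouse. No gene of this list had a promoter peak in 4 mice of 1 group and 0 of the other.

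For each member with H3K4me3 in at least 4 mice, the 3 protein-coding genes with the most similar promoter percentiles over the 32 libraries were listed, by mean absolute difference. Nearest to Adrb3 were Nabp1 (2.67 points), Trp53inp1 (3.43) and Trdmt1 (3.45). Nearest to Adra1a were Baz2b (2.52), Slc39a1 (2.57) and Zfp91 (2.75), and to Adrb1 Usf2 (2.46), Nr2f6 (2.75) and Ythdf3 (2.93). Adra1d was closest to Rgs7 (2.12), Lims1 (2.87) and Gas1 (3.10). Members with few peaks had nearer neighbours, which share mostly empty libraries: Tub (0.747), Zic5 (0.839) and Sh3gl3 (0.912) for Adra1b, Lmx1a (0.671), Elovl7 (0.847) and Map6d1 (0.946) for Adra2a, and Ltbp2 (0.793), Ntf5 (0.957) and Ccna1 (1.2) for Adra2b.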

How the data were processed

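ChIP-seq libraries of 4 histone marks in 8 mice were read as 32 deposited peak lists, 1 per library. Per the labels and methods, the authors trimmed reads with cutadapt, aligned them to GRCm38 with Bowtie2 and called peaks with MACS2 against the input of the sample. Versions and the peak threshold were not given in the sources used here, and the lowest −log10 q in the lists was 1.3. The deposited lists give fold enrichment over input (a ratio), −log10 p and −log10 q values and a score per peak. Read depth is unknown, so precision was judged from list length and the spread between mice. The 8 inputs were not used. Peaks were compared with GENCODE M21 basic transcripts: a promoter was 1000 bp either side of a start, a window the gene body and 20 kb each side, and 1 shared bp counted. Sequences came from RefSeq (GRCm38.p6).

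Presence was tested with Fisher's exact test, and percentiles (0 where there was no peak) and promoter bases with two-sided exact permutation tests over 70, 2520 and 12870 assignments, each adjusted by Benjamini-Hochberg over all protein-coding genes with a peak. Marks were paired by the mouse number that the labels give each library, whether or not tissue was pooled under it, and 256 sign flips gave the paired test. All tests were checked on simulated data. Members and gene lists were chosen with earlier results of these data known. The 8 members were all named. Coupling genes were named, except 1 that is not reported here, for the 3 highest median −log10 q per mark among those in the most mice, the 5 reference genes whatever their values, neighbours for a start within 1000 bp of a window peak, and similar genes as the 3 nearest in percentile (chromosome 18 left out). Analyses used Python 3.11.15, numpy 2.4.6, pandas 2.3.3 and scipy 1.17.1.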

Additional observations from a re-analysis of the deposited data

Results flagged for a closer look

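In groups of 4 or 8 mice, the highest or lowest percentile of a receptor's strongest promoter peak was compared with the others by Dixon's limit at 95%. Of 31 groups, 8 passed, where about 1 in 20 (1.55) would by chance. Mouse 7 stood apart in 6 of the 8. For Adrb3 H3K4me3 it had the 15.2 percentile against 57.2 to 86.3 in the other 7 mice. For Adrb3 H3K27ac it had 38.6 against 87.6 to 98.4 among all mice and 87.6 to 97.1 among warm mice. For Adra1a H3K27ac it had 47.7 against 87.8 to 98.0 among all mice, 94.3 to 98.0 among warm and 92.4 to 98.0 among HFD mice. The H3K27ac list of mouse 7 held 3224 peaks, the fewest of the mark, and the part of list length was not tested. These groups overlap, since they share mouse 7. Adra1d H3K4me3 in mouse 10 had 17.2 against 56.6 to 62.7 in the other cold mice. Adrb1 H3K4me3 in mouse 1 had 60.9 against 71.0 to 72.3 in the other NCD mice, a gap of few points in a narrow group.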

How the results depend on the processing

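Each count of members was recomputed under 19 other settings, which gave 492 values for 34 results. Of these values, 480 stayed within 1.5 times the reported count. That share does not measure stability, since many results were counts of 0, and a 0 that stayed 0 counted as unchanged. The percentile and interaction counts were 0 where no gene could pass in the reported setting. With lists of equal length, the loss of Adra1b and Adra2b from the H3K4me3 promoter count also stayed within 1.5 times. The 4 members with an H3K4me1 window peak in at least 4 mice became 1 when peaks needed −log10 q of at least 5, 1 with lists of equal length (592 peaks in 6 mice), and 2 to 4 when 1 mouse was left out (2 without mouse 2, 4, 5 or 8). Leaving out mouse 11 made Adra2b a gene with H3K4me3 in all NCD and no HFD mice, so the count of 0 became 1 for promoters and for windows, and leaving out mouse 1 did so for H3K4me1 over Adra1b (1), and each of these counts was 0 to 1 over the mice left out. The members with H3K4me3 above H3K27me3 were 5 to 6 over the mice left out. The tests between marks moved too. With the replicate block (sign flips within mice) the 4 members with H3K27ac above H3K27me3 became 0, where no gene could pass because the smallest possible p adjusted to 0.0509, and the differences themselves did not change. With lists of equal length within each mouse, a setting added after the data were seen, the 6 members with H3K4me3 above H3K27me3 became 0 and the 4 with H3K27ac became 0, by construction on far fewer peaks. Beyond fewer peaks or fewer mice, the cause was not tested. Leaving out mice 7 and 10, also added after the data were seen, moved no count by over 1.5 times. Lists of H3K4me1 and H3K27me3 under 100 peaks were left out of the equal-length setting. Peak lists without reads cannot show marks below the caller's threshold, and comparisons of 4 against 4 mice cannot give an exact p below 0.0286.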
